A study of Mus musculus with 6 samples.

Results

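The genes of the mouse major histocompatibility complex (MHC), whose symbols carry the prefix H2, were followed in whole liver together with 7 partner genes that load MHC molecules or switch their genes on. A row of the deposited tables was taken when its symbol started with H2- and did not end in -ps, the mark of a pseudogene, or when it was B2m, Tap1, Tap2, Tapbp, Cd74, Ciita or Nlrc5. The rule used names and no measured value, and it gave 49 of 50600 genes, 45 of them on chromosome 17 and 1 each on chromosomes 2, 8, 16 and 18. By role, 35 belong to class I, 13 to class II, and H2-Ke6 encodes a steroid dehydrogenase (Hsd17b8) that only shares the prefix.

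RNA was sequenced from whole liver of C57BL/6 mice of about 1 month in 2 genotypes, to ask what changes when hepatocytes lack Dicer, the enzyme that cuts precursors into mature miRNAs. The deleted samples were Dicer loxP/loxP;Alb-cre (Dicer LKO, n = 3) and the controls were Dicer loxP/loxP without Cre (n = 3), so both genotypes carried the loxP-flanked alleles. The albumin promoter drives Cre mainly in hepatocytes. Whether the other liver cells in these samples keep Dicer was not measured. The labels do not state that replicates are separate animals, so the p-values here cover sample-to-sample spread alone, part of which may be technical.

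MHC class I molecules are made by nearly all cells with a nucleus. They pair a heavy chain with beta-2 microglobulin (B2m), take up peptides from the cell's own proteins through the TAP transporter and show them to CD8+ T cells and natural killer cells. Class II molecules are made mainly by macrophages, dendritic cells and B cells, hold the invariant chain Cd74 until they are loaded with peptides from engulfed material, and show these to CD4+ T cells. In liver, hepatocytes display class I, while Kupffer cells (the resident macrophages), dendritic cells and sinusoidal endothelial cells are the known sites of class II. Promoters of both classes share an upstream module that ends in an X2 box, bound by CREB-type factors, and a Y box, bound by NF-Y; Nlrc5 acts there on class I genes and Ciita on class II genes.

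The windows below show the cores of that module in class II (H2-Aa) and in class I with its light chain (H2-K1, H2-D1, B2m). H2-Eb1, a class II chain whose window holds the Y box core alone, is shown beside H2-Q10, the liver's secreted class I gene, and H2-M2, the member that the test called. Each runs 5′ to 3′ on the gene's own strand from 120 bases before the RefSeq start to 30 bases from it (GRCm38.p6), and capitals mark CCAAT, the Y box core, and TGACG, the X2 box core, on either strand.
H2-Aa (chr17:34287794-34287943, minus strand): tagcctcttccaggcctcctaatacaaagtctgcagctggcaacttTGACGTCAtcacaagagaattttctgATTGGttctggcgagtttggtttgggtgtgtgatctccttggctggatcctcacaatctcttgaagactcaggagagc
H2-Eb1 (chr17:34305747-34305896, plus strand): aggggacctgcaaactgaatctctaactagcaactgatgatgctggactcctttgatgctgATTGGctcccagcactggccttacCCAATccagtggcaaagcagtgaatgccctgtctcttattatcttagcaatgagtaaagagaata
H2-K1 (chr17:34000318-34000467, minus strand): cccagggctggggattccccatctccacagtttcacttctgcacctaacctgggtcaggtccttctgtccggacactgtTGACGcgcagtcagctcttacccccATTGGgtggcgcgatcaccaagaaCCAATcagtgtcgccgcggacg
H2-D1 (chr17:35262974-35263123, plus strand): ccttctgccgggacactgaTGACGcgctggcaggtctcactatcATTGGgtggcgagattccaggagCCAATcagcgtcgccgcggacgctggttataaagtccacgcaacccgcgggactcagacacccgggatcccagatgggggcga
B2m (chr2:122147567-122147716, plus strand): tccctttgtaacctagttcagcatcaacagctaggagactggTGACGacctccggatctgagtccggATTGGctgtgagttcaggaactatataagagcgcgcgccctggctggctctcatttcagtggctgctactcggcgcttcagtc
H2-Q10 (chr17:35469969-35470118, plus strand): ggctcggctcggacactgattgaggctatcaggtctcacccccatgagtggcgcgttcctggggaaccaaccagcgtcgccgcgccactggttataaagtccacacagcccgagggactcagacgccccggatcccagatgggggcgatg
H2-M2 (chr17:37483525-37483674, minus strand): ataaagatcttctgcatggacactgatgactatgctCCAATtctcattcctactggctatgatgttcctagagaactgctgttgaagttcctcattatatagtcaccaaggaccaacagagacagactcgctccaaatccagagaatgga

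CCAAT occurred in the promoter window (250 bases before the start to 50 after it, both strands) of 30 of the 34 members with a RefSeq promoter entry (the first entry where there were several), or 88.2%, against 37.4% of 32851 promoters in the same table. TGACG occurred in 14 of 34 (41.2%), against 20.8% of all promoters. A TGACG that precedes a Y box core on the opposite strand by 24 to 26 bases, counted between first letters, a spacing chosen after the sequences were seen, was found in 6 members, H2-Aa, B2m, H2-K1, H2-D1, H2-M3 and H2-Q7, or 17.6%, against 0.116% of all promoters. The 4 members without CCAAT in that entry were H2-Q10, H2-T3, H2-M5 and H2-DMa, and the second entry of H2-DMa held one. For the interferon-stimulated response element a single strict letter pattern was searched, and other spellings of the element were not. The search therefore cannot show which members lack the element. That pattern was found in 3 members, B2m, H2-T23 and H2-T22 (8.82%, against 3.44% of all promoters). These are matches of letters and not measured binding, and a missing match says only that the letters are not in the window.

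The Dicer LKO libraries held 22257509 to 25049753 counts and the controls 14141954 to 22152515, with control 3 the shallowest. Mitochondrial genes took 10.2% of the counts of control 3, against 4.62% to 6.40% in Dicer LKO and 6.12% and 6.46% in the other controls, and its part in the values below was not tested. Dicer1 itself was at 28.9, 31.2 and 24.4 CPM (counts scaled to library size with TMM factors) in Dicer LKO and at 42.5, 69.2 and 56.1 CPM in controls. The groups did not overlap, and the log2 fold change of −0.99 (SE 0.20) had an adjusted p of 0.0622 in edgeR, above the threshold of 0.05. Over the series, 14314 genes were tested and 185 called at an adjusted p under 0.05, 106 higher and 79 lower in Dicer LKO, with a median log2 fold change of −0.01. Without control 3 the count was 23 and without control 1 it was 389. Libraries also stood apart within groups: summed acute phase genes came to 44270 TPM (transcript abundance per length, as deposited) in Dicer LKO 2, against 12610 and 13380 TPM in the other Dicer LKO libraries, and to 17780 TPM in control 2, against 1498 and 2635 TPM in the other controls.

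Of the 49 members, 15 were listed at 0 in all 6 libraries, 4 had too few reads to be tested and 30 passed the filter on low counts. A single class I gene, H2-M2, was called higher in Dicer LKO and no member was called lower, so that 3.33% of the tested members were called, against 1.29% of all genes (0.741% called higher). DESeq2 called the same member, and 8.1% of all genes, while voom called no member and 5.5% of all genes. At an unadjusted p under 0.05 the members numbered 6, or 20.0%, against 21% of all genes tested. The CPM of the groups did not overlap for 3 of 30 members (10%), against 28% of all genes. These shares rest on few genes, and nothing particular to the members is read from them. All 8 tested class II members had positive log2 fold changes (7 of 8 under voom, where Ciita had −0.03), with a median of 0.71. Ciita also turned negative without Dicer LKO 3 (−0.11), without control 1 (−0.10) and without control 3 (−0.05), and H2-Ob without control 1 (−0.09). Of the 21 tested class I members 9 were positive (7 when scaled by library totals), with a median of −0.09. The class I direction turned with 1 library: 14 of 21 were positive without control 2 (median 0.19) and 12 of 21 without Dicer LKO 2 (median 0.05). Over all genes tested 48.6% were positive.

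**Figure D1:**
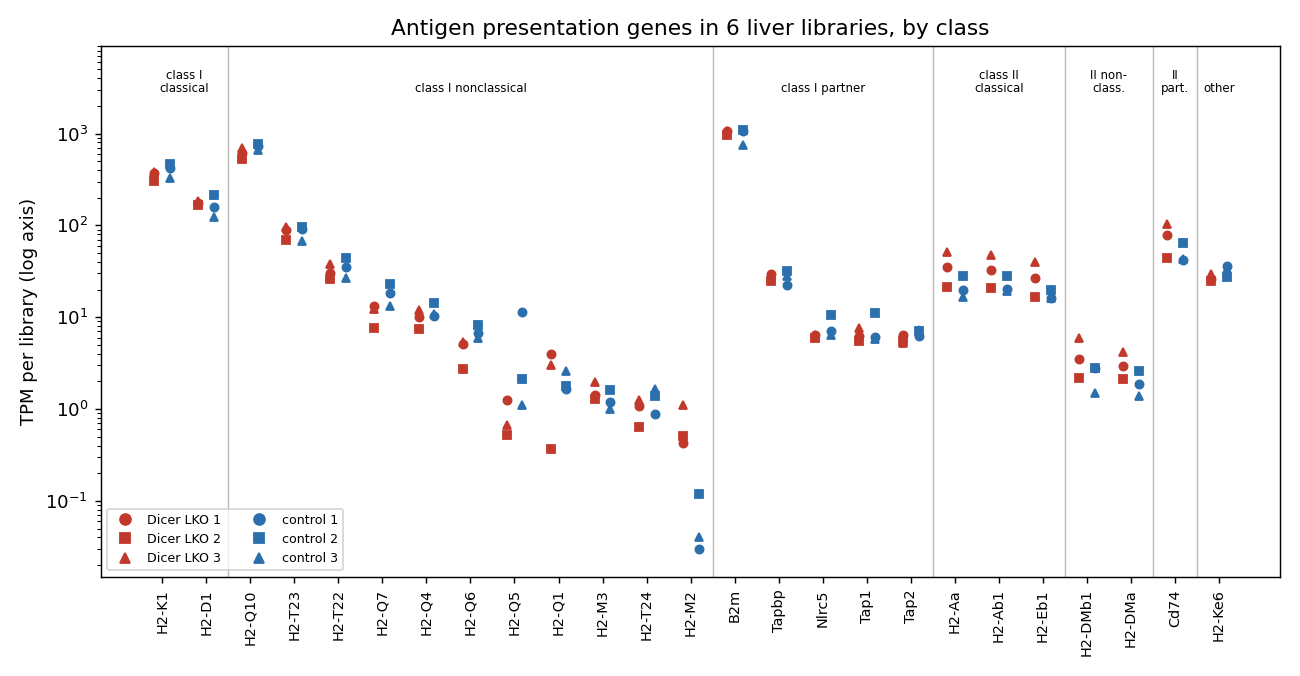
TPM (log axis) in each of the 6 libraries for the 24 members that averaged at least 1 TPM and for H2-M2, ordered by class and level, with Dicer LKO libraries in red on the left and controls in blue on the right of each gene. B2m, H2-Q10, H2-K1 and H2-D1 lie above 100 TPM in every library; H2-M2 lies at 0.43 to 1.11 TPM in Dicer LKO and at 0.03 to 0.12 TPM in controls.

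H2-K1 and H2-D1 are the classical class I heavy chains of this strain. H2-K1 (chromosome 17, 33996017 to 34000347, minus strand, GRCm38) was at 370, 306 and 386 TPM in Dicer LKO and at 421, 467 and 331 TPM in controls. The means were 354 ± 42.0 and 406 ± 68.8 TPM (SD, n = 3 each), the ranges overlapped, and the log2 fold change was −0.09 (SE 0.22, adjusted p = 0.859 by edgeR's quasi-likelihood test, as for all adjusted p-values below). H2-D1 (chromosome 17, 35262730 to 35267499, plus strand) was at 174, 168 and 183 TPM in Dicer LKO and at 159, 215 and 125 TPM in controls. Its Dicer LKO libraries fell inside the span of the controls, and its log2 fold change was 0.20 (SE 0.25, adjusted p = 0.680). A p that misses the threshold does not show that the genotypes are alike; the libraries allow differences of the size of these errors.

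Among the nonclassical class I genes, H2-Q10, which encodes a soluble class I molecule released by the liver, was the most abundant heavy chain. It stood at 612, 523 and 698 TPM in Dicer LKO and at 734, 769 and 661 TPM in controls (log2 fold change −0.18, SE 0.20, adjusted p = 0.648), with Dicer LKO 3 above control 3 and the other Dicer LKO libraries below all controls. It made up 46.6% to 48.4% of all class I heavy chain TPM in Dicer LKO and 46.7% to 52.9% in controls, and with H2-K1 and H2-D1 it made up 87.8% to 89.5% in every library. The promoter printed for H2-Q10 above is the only window of the 7 without a capital.

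H2-T23 encodes Qa-1, the ligand of the CD94/NKG2A receptor of natural killer cells. It was at 89.1, 69.3 and 97.0 TPM in Dicer LKO and at 91.7, 96.9 and 68.1 TPM in controls, near-identical spans (log2 fold change 0.08, SE 0.19, adjusted p = 0.843). H2-T22, a ligand of some gamma delta T cells, was at 30.6, 26.4 and 38.2 TPM in Dicer LKO and at 35.2, 44.7 and 26.9 TPM in controls (log2 fold change −0.07, SE 0.22, adjusted p = 0.893). Both genes overlap the same gene on the other strand (A930015D03Rik), and without a known strand setting their reads cannot be told from its reads.

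H2-Q7 and H2-Q6, neighbours that encode the Qa-2 antigen, were the abundant class I genes whose libraries did not overlap between genotypes. H2-Q7 (chromosome 17, 35439155 to 35443773, plus strand) was at 13.2, 7.59 and 12.2 TPM in Dicer LKO and at 18.5, 22.8 and 13.3 TPM in controls. Every Dicer LKO library lay below every control, though Dicer LKO 1 and control 3 were almost level. Its log2 fold change of −0.70 (SE 0.22) had an unadjusted p of 0.0146 and an adjusted p of 0.142, so it was not called. H2-Q6 was at 5.12, 2.72 and 5.41 TPM in Dicer LKO and at 6.69, 8.24 and 5.97 TPM in controls (log2 fold change −0.56, SE 0.25, adjusted p = 0.249). Set against H2-K1 in the same library, H2-Q7 stood at 3.59%, 2.48% and 3.16% of the H2-K1 TPM in Dicer LKO and at 4.4%, 4.9% and 4.0% in controls, again without overlap. The sequences of H2-Q6 and H2-Q7 are nearly the same, the deposited counts of both hold fractions of reads shared out by a model, and their split is uncertain.

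H2-Q4 was at 10.01, 7.38 and 12.01 TPM in Dicer LKO and at 10.4, 14.4 and 10.9 TPM in controls, with overlap (log2 fold change −0.22, SE 0.20, adjusted p = 0.578). H2-Q5, annotated as a pseudogene in some strains, was at 1.26, 0.52 and 0.67 TPM in Dicer LKO and at 11.4, 2.10 and 1.11 TPM in controls. The high value of control 1 came from 24 reads over an estimated transcript length of 239 bases, where the other libraries had estimates of 1073 to 1133 bases and 16 to 56 reads; on counts the log2 fold change was −0.68 (SE 0.46, adjusted p = 0.444). H2-Q1 spread most within Dicer LKO among members of at least 1 TPM, with 3.96, 0.37 and 3.05 TPM in Dicer LKO, against 1.67, 1.77 and 2.60 TPM in controls (log2 fold change 0.33, SE 0.72, adjusted p = 0.833). H2-M3, which presents bacterial N-formyl peptides, was at 1.41, 1.29 and 1.97 TPM in Dicer LKO and at 1.2, 1.63 and 1.01 TPM in controls (log2 fold change 0.38, SE 0.29, adjusted p = 0.496). H2-T24 was at 1.07, 0.64 and 1.27 TPM in Dicer LKO and at 0.88, 1.40 and 1.67 TPM in controls (log2 fold change −0.10, SE 0.34, adjusted p = 0.896).

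H2-M2 (ENSMUSG00000016283.13, chromosome 17, 37480851 to 37483552, minus strand), the last class I gene of the complex in chromosome order here, was the 1 member called. It had 17, 19 and 45 reads in Dicer LKO and 1, 4 and 1 reads in controls, which is 0.43, 0.51 and 1.11 TPM in Dicer LKO and 0.03, 0.12 and 0.04 TPM in controls. All 3 Dicer LKO libraries were higher than all 3 controls, at low levels throughout. The log2 fold change was 3.44 (SE 0.63, adjusted p = 0.0489), close to the threshold. It passed the filter on low counts only through its Dicer LKO level. The call ended when any 1 of the 6 libraries was left out (log2 fold changes 2.98 to 4.34, the highest without control 2, adjusted p = 0.0731 to 0.146), and it also ended under scaling by library totals (adjusted p = 0.0612), with the replicate number as a block (0.0537) and under voom (0.0564), while DESeq2 kept it (0.00180). No other annotated gene overlaps it, and its counts held whole reads only.

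The class I genes under 1 TPM were uneven. H2-K2, a transcribed pseudogene next to H2-K1, had 12, 8 and 23 reads in Dicer LKO and 29, 31 and 14 reads in controls (log2 fold change −0.99, SE 0.41, unadjusted p = 0.0437, adjusted p = 0.224). H2-Q2 had 26, 5 and 42 reads in Dicer LKO and 10, 16 and 5 reads in controls (log2 fold change 1.0, SE 0.67, adjusted p = 0.437), and H2-T10 had a log2 fold change of 0.20 (SE 0.47, adjusted p = 0.843). H2-Bl had 0 to 7 reads in Dicer LKO and 5 to 8 in controls and was not tested. H2-T3, H2-Q3 and 11 of the 13 H2-M genes (H2-M1, H2-M5, H2-M9, H2-M11, the 6 H2-M10 genes and the pseudogene H2-M10.5-ps1) had a count of 0 in every library, which allows up to 3 reads in each. At this depth H2-M2 and H2-M3 were thus the only H2-M genes of class I with reads.

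B2m, the light chain (chromosome 2, 122147686 to 122153083, plus strand), was the most abundant member at 1074, 971 and 1058 TPM in Dicer LKO and 1080, 1106 and 749 TPM in controls (log2 fold change 0.18, SE 0.23, adjusted p = 0.691). Its TPM divided by the summed heavy chain TPM came to 0.817, 0.871 and 0.733 in Dicer LKO and 0.723, 0.671 and 0.599 in controls. Dicer LKO lay above controls in this ratio without overlap, narrowly so between Dicer LKO 3 and control 1. Tapbp, which encodes tapasin, the bridge between class I and the transporter, was at 29.3, 24.6 and 26.7 TPM in Dicer LKO and 22.6, 32.2 and 27.9 TPM in controls (log2 fold change 0.04, SE 0.17, adjusted p = 0.925).

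Tap1 and Tap2 form the peptide transporter. Tap1 was at 6.32, 5.46 and 7.73 TPM in Dicer LKO and 6.09, 11.01 and 5.77 TPM in controls (log2 fold change −0.21, SE 0.26, adjusted p = 0.696), and control 2 alone was high. Tap2 was at 6.41, 5.48 and 5.27 TPM in Dicer LKO and 6.25, 7.03 and 7.30 TPM in controls (log2 fold change −0.15, SE 0.14, adjusted p = 0.576). Nlrc5, the activator of class I genes (chromosome 8, 94434356 to 94527272, plus strand), was at 6.37, 5.88 and 6.41 TPM in Dicer LKO and 7.16, 10.6 and 6.39 TPM in controls (log2 fold change −0.28, SE 0.24, adjusted p = 0.556). The Dicer LKO values of Nlrc5 were tight and at the low end of the controls, with Dicer LKO 3 just above control 3.

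**Figure D2:**
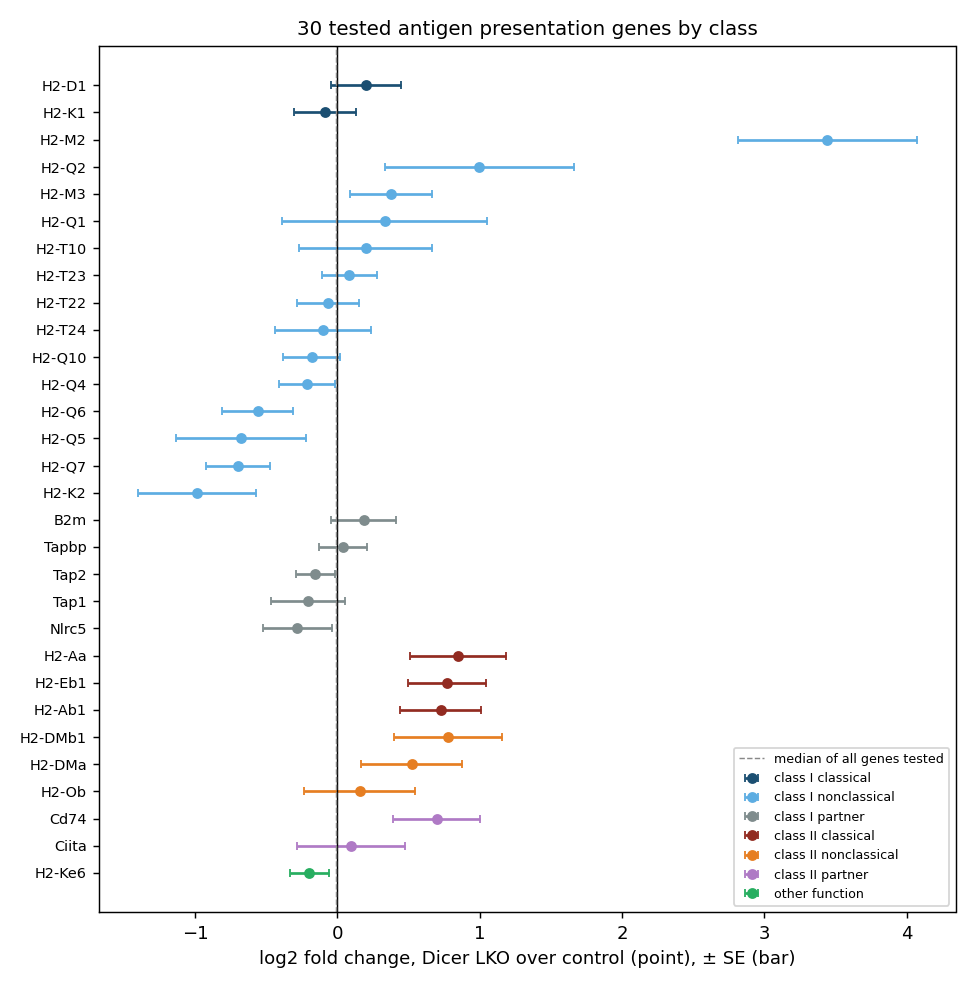
Log2 fold changes (Dicer LKO over control, on counts) of the 30 tested members with bars of ± 1 SE, coloured by class; the dashed line is the median of all genes tested, −0.01. The class II members lie to the right of 0, from 0.10 to 0.84 (Ciita was at −0.03 under voom, and Ciita and H2-Ob were below 0 with some libraries left out), the class I members lie on both sides, and H2-M2 stands apart at 3.44.

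The classical class II chains were measured at similar levels to each other and moved together across libraries. H2-Aa, the alpha chain of I-A (chromosome 17, 34282744 to 34287823, minus strand), was at 35.6, 21.2 and 51.9 TPM in Dicer LKO and 19.7, 28.4 and 16.8 TPM in controls. Dicer LKO 1 and 3 were above all controls, and Dicer LKO 2 was below control 2. The means were 36.2 ± 15.3 and 21.6 ± 6.08 TPM (SD, n = 3 each), and the log2 fold change was 0.84 (SE 0.34, unadjusted p = 0.0409, adjusted p = 0.217). H2-Ab1, the beta chain of I-A (chromosome 17, 34257689 to 34269419, plus strand), was at 32.9, 20.6 and 47.4 TPM in Dicer LKO and 20.3, 27.9 and 19.1 TPM in controls (log2 fold change 0.73, SE 0.28, unadjusted p = 0.0354, adjusted p = 0.205). H2-Eb1, the beta chain of I-E (chromosome 17, 34305867 to 34316674, plus strand), was at 26.8, 16.7 and 40.2 TPM in Dicer LKO and 16.2, 20.0 and 16.0 TPM in controls (log2 fold change 0.77, SE 0.27, unadjusted p = 0.0246, adjusted p = 0.175). Its order of libraries was the same as that of H2-Aa within Dicer LKO. The C57BL/6 haplotype makes no I-E alpha chain, and H2-Ea-ps, left out by the rule, was at 0 in all libraries. H2-Eb2 had 0, 0 and 2 reads in Dicer LKO and 1 in each control.

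Cd74, the invariant chain (chromosome 18, 60803848 to 60812652, plus strand), was the most abundant class II gene, at 79.5, 44.6 and 105 TPM in Dicer LKO and 42.4, 64.6 and 42.9 TPM in controls (log2 fold change 0.70, SE 0.31, adjusted p = 0.245). It followed the chains closely: its TPM was 2.42, 2.17 and 2.21 times that of H2-Ab1 in Dicer LKO and 2.09, 2.31 and 2.25 times in controls. The ratio of H2-Aa to H2-Ab1 was 1.08, 1.03 and 1.10 in Dicer LKO and 0.971, 1.02 and 0.877 in controls. So the chains and Cd74 varied up to 2.44 times between Dicer LKO libraries while their proportions varied little.

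H2-DMa and H2-DMb1 form H2-DM, which removes weakly bound peptides from class II. H2-DMb1 was at 3.54, 2.20 and 5.98 TPM in Dicer LKO and 2.80, 2.78 and 1.5 TPM in controls (log2 fold change 0.78, SE 0.38, adjusted p = 0.285). H2-DMa was at 2.97, 2.13 and 4.18 TPM in Dicer LKO and 1.87, 2.62 and 1.38 TPM in controls (log2 fold change 0.52, SE 0.35, adjusted p = 0.442). H2-DMb2, a second H2-DM beta chain, had 6, 9 and 21 reads in Dicer LKO and 8, 7 and 7 in controls and was not tested. H2-Oa and H2-Ob form H2-O, the inhibitor of H2-DM found mainly in B cells: H2-Ob had 18, 12 and 17 reads in Dicer LKO and 9, 16 and 11 in controls (log2 fold change 0.16, SE 0.39, adjusted p = 0.855), and H2-Oa had 2, 3 and 12 reads in Dicer LKO and 5, 4 and 0 in controls. The pseudogenes H2-Pa and H2-Pb were at 0 throughout.

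Ciita, the activator that class II genes depend on (chromosome 16, 10480059 to 10528418, plus strand), had 77, 45 and 105 reads in Dicer LKO and 49, 98 and 36 in controls, or 0.47, 0.27 and 0.58 TPM in Dicer LKO and 0.32, 0.65 and 0.34 TPM in controls. The genotypes overlapped almost fully, and the log2 fold change was 0.10 (SE 0.38, adjusted p = 0.915), the smallest of class II. Across the 8 tested class II members none was called by edgeR, DESeq2 or voom, 3 (the classical chains) had an unadjusted edgeR p under 0.05 (37.5%, against 21% of all genes), and 0 separated the genotypes without overlap (28% of all genes did). The median log2 fold change of 0.71 lay between 0.44, without Dicer LKO 3, and 0.99, without Dicer LKO 2, when single libraries were left out. H2-Ke6, the dehydrogenase, was at 25.9, 24.7 and 29.3 TPM in Dicer LKO and 36.4, 27.3 and 33.1 TPM in controls (log2 fold change −0.20, SE 0.14, adjusted p = 0.450).

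On the TPM scale the same libraries were high or low across many members. Dicer LKO 3 was the highest of all 6 libraries for 6 of 8 tested class II members, all but Ciita and H2-Ob, and for 5 of 21 class I members (3 of 21 on CPM). Dicer LKO 2 was the lowest Dicer LKO library for 8 of 8 class II members and for 19 of 21 class I members, all but H2-M2 and Tap2; on CPM it was the lowest for 16 of 21, with B2m, H2-D1 and Nlrc5 as further exceptions. It was below control 2 for 8 of 8 class II and 20 of 21 class I members. Control 2 was the highest control for 7 of 8 class II and 17 of 21 class I members (8 of 8 and 19 of 21 on CPM). Dicer LKO 2 and control 2 were also the libraries with the most acute phase transcript in their groups, and its part in these values was not tested. Among abundant members, the TPM of the highest over the lowest Dicer LKO library was 2.44 for H2-Aa, 2.41 for H2-Eb1, 2.35 for Cd74 and 2.30 for H2-Ab1, and 1.33 for H2-Q10, 1.26 for H2-K1, 1.11 for B2m and 1.09 for H2-D1. In controls the same ratio was 1.70 for H2-Aa, 1.25 for H2-Eb1, 1.53 for Cd74 and 1.46 for H2-Ab1, and 1.16 for H2-Q10, 1.41 for H2-K1, 1.48 for B2m and 1.73 for H2-D1, so the classes were not set apart there. Less abundant class I genes also varied widely in Dicer LKO, up to 10.7 times for H2-Q1.

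Set against class I in the same library, class II was higher in each Dicer LKO library than in any control. Summed over the 30 class I heavy chains, the level was 2737, 2515 and 2872 CPM in Dicer LKO and 2834, 3355 and 2399 CPM in controls, with means of 2708 ± 180 and 2863 ± 479 CPM (SD, n = 3 each), a ratio of 0.946. Summed over the 11 class II chains, it was 146, 97.1 and 208 CPM in Dicer LKO and 81.0, 114 and 70.3 CPM in controls, with means of 150 ± 55.3 and 88.4 ± 22.7 CPM, a ratio of 1.70. The class I sums overlapped fully and the class II sums overlapped through Dicer LKO 2 and control 2. For every 100 CPM of class I chains there were 5.35, 3.86 and 7.23 CPM of class II chains in Dicer LKO and 2.86, 3.39 and 2.93 CPM in controls. Here the genotypes did not overlap, with means of 5.48 ± 1.69 and 3.06 ± 0.29 and a ratio of 1.79, which ranged from 1.51 to 2.05 with single libraries left out. Among single genes, 28% of all genes tested showed no overlap and 12.7% showed none with Dicer LKO higher, so separation in 3 against 3 libraries is common in this series. H2-Aa, H2-Ab1 and H2-Eb1 supplied 91.5% to 93.5% of the class II chain TPM in every library. These sums were described and not tested.

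**Figure D3:**
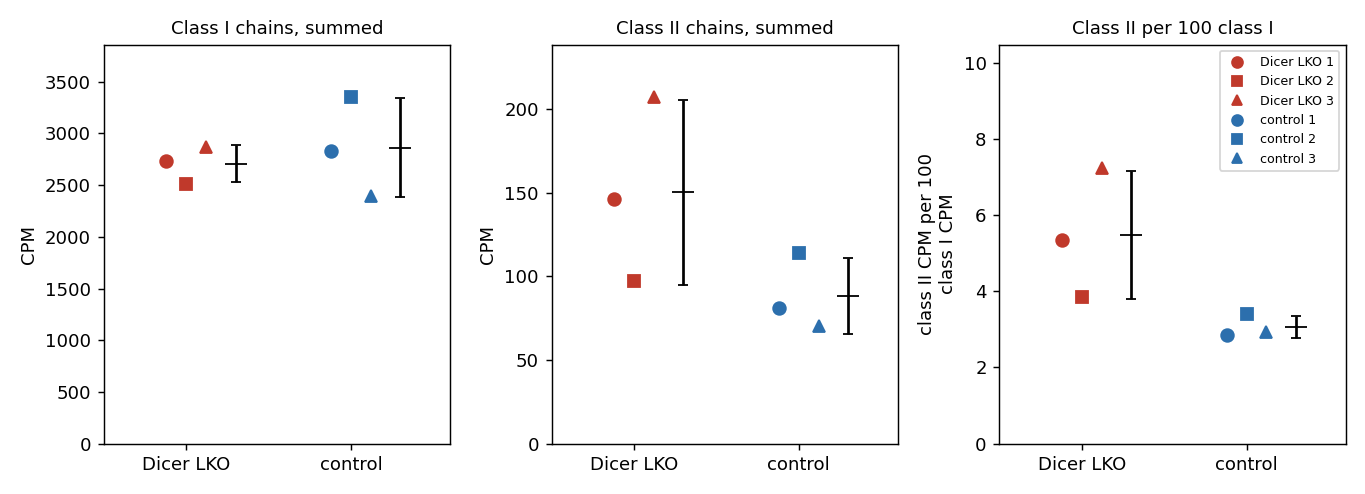
Summed CPM of the 30 class I heavy chains (left), of the 11 class II chains (middle) and class II CPM per 100 class I CPM (right); points are single libraries, Dicer LKO left and control right, and the black marks are means ± SD of 3 libraries. Class I overlaps between genotypes, while class II per 100 class I is at 3.86 to 7.23 in Dicer LKO and at 2.86 to 3.39 in controls.

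Along chromosome 17, class II forms a block between 2 stretches of class I. From H2-DMa to H2-Eb1 the tested class II members had log2 fold changes of 0.16 to 0.84, and Tap1 and Tap2, which lie inside the same block, had −0.21 and −0.15. On one side Tapbp had 0.04, the pseudogene H2-K2 (under 1 TPM) −0.99 with an error of 0.41, H2-K1 −0.09 and H2-Ke6 −0.20. On the other side H2-D1 had 0.20. Further along, H2-Q4, H2-Q5, H2-Q6, H2-Q7 and H2-Q10 lie next to each other and all had negative values, from −0.70 to −0.18. None of them was called. Without control 2 their values ran from −0.45 for H2-Q7 to −0.0038 for H2-Q4. Reads of H2-Q5, H2-Q6, H2-Q7 and H2-Q10 are shared with similar genes, so their common sign may not be independent. H2-Q1 and H2-Q2, before this run, had 0.33 and 1.0 with errors of 0.72 and 0.67.

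**Figure D4:**
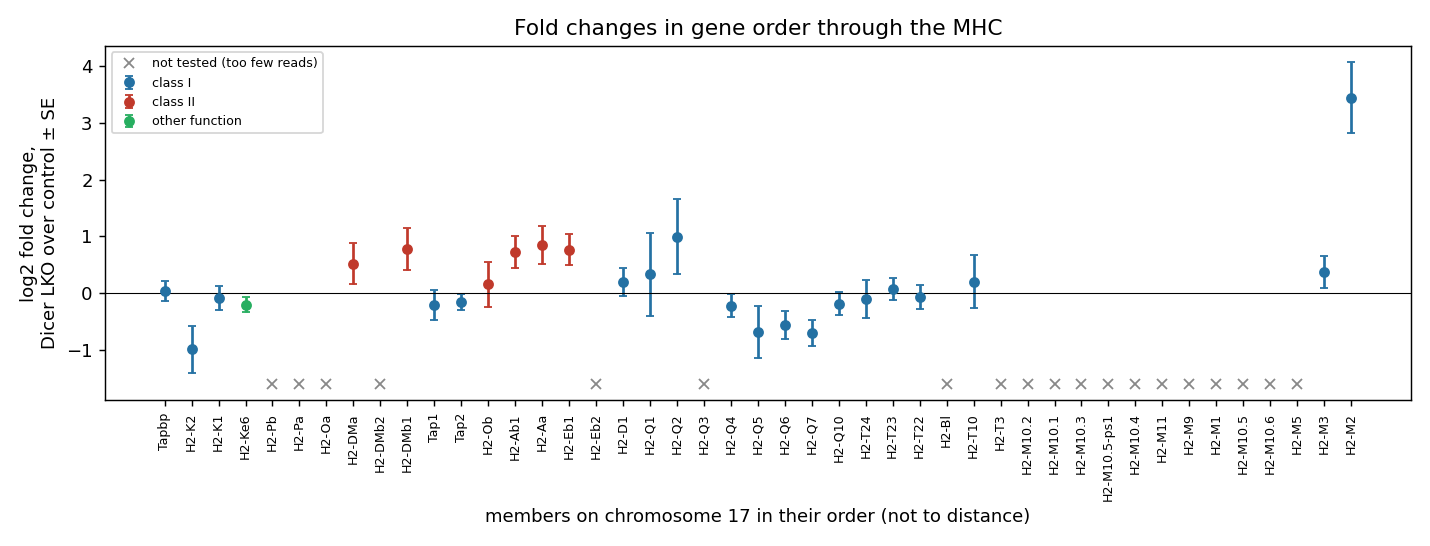
Log2 fold changes (Dicer LKO over control) ± 1 SE of the 45 members on chromosome 17 in chromosome order, not to distance; crosses mark members with too few reads to test, set at an arbitrary height. Red class II points sit above 0, with the blue points of Tap1 and Tap2 between them just below 0.

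Summed macrophage markers ranked all libraries in the same order as summed class II chain TPM. In bulk RNA more cells of a type cannot be told apart from more RNA per cell. Summed markers of macrophages and Kupffer cells came to 297, 242 and 319 TPM in Dicer LKO and 180, 277 and 134 TPM in controls. All 16 of these markers were tested, all 16 had positive log2 fold changes (median 0.81) and 2 were called higher (12.5%, against 0.741% of all genes), Trem2 (2.06, adjusted p = 0.0415) and Cx3cr1 (2.14, adjusted p = 0.0196), both receptors of recruited macrophages. DESeq2 called 5 of the 16 (Fcgr1, Trem2, Marco, C1qa and Cx3cr1), against 8.1% of all genes, and voom called Trem2 and Cx3cr1. None of the 16 was at 0 in all libraries. Within Dicer LKO the macrophage sum, like class II, was lowest in Dicer LKO 2, and within controls it was highest in control 2. Set against the complement genes C1qa, C1qb and C1qc, which macrophages express, class II chain TPM per C1q TPM was 0.761, 0.570 and 1.09 in Dicer LKO and 0.903, 0.753 and 1.08 in controls. C1qa is among the genes that DESeq2 called, and the C1q sum itself was 135, 111 and 139 TPM in Dicer LKO and 68.0, 109.7 and 51.3 TPM in controls, without overlap. On that scale the genotypes overlapped, with means of 0.805 ± 0.260 and 0.912 ± 0.164 (SD, n = 3 each). The part of macrophage number in the class II levels was not tested.

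Markers of dendritic cells and B cells were at low levels. The 12 dendritic cell markers summed to 4.39, 4.67 and 6.63 TPM in Dicer LKO and 3.94, 5.2 and 4.63 TPM in controls, with 0 of 6 tested called by edgeR, DESeq2 or voom and 2 at an unadjusted p under 0.05. Of the 6 tested, 4 had positive log2 fold changes, with a median of 0.40 and a range of −0.18 to 1.43. Zbtb46, a dendritic cell transcription factor, was at the low end with −0.18 (adjusted p = 0.561). The 10 B cell markers summed to 5.83, 5.39 and 7.96 TPM in Dicer LKO and 3.04, 3.05 and 5.12 TPM in controls, without overlap. Of 4 tested, edgeR called 0 and 1 had an unadjusted edgeR p under 0.05. Positive log2 fold changes were seen for 3 of the 4, with a median of 0.30 and a range of −0.45 to 1.19. Most of the sum was Ighm, the IgM heavy chain, which had the highest value. It was at 3.93, 4.47 and 5.11 TPM in Dicer LKO and 1.67, 1.52 and 3.16 TPM in controls (log2 fold change 1.19, adjusted p = 0.0773, called by DESeq2 and voom). The 12 T and NK cell markers summed to 2.63 to 5.34 TPM in Dicer LKO and 2.53 to 3.88 TPM in controls, with 0 of 5 tested called by the 3 tools and 0 at an unadjusted p under 0.05. Endothelial markers summed to 107 to 114 TPM in Dicer LKO and 72.7 to 95.6 TPM in controls. They were highest in Dicer LKO 2, where class II was lowest among Dicer LKO libraries. Of 8 tested, edgeR called 0 and 5 had an unadjusted edgeR p under 0.05 (21% of all genes did). DESeq2 called 3 (8.1% of all genes) and voom called 2 (5.5% of all genes). Neutrophil markers summed to 52.0 to 145 TPM in Dicer LKO and 4.86 to 36.7 TPM in controls. Of 7 tested, 6 had an unadjusted edgeR p under 0.05, DESeq2 called 3, and edgeR and voom called 0. Bile duct markers summed to 76.6 to 152 TPM in Dicer LKO and 19.5 to 27.3 TPM in controls. Here edgeR called 3 of 7 tested higher, Spp1, Cftr and Epcam (42.9%, against 0.741% of all genes). The list was not uniform: 5 of the 7 had positive log2 fold changes, with a median of 2.30 and a range of −0.72 to 3.74. Hepatocyte markers overlapped, at 22470 to 32440 TPM in Dicer LKO and 20080 to 35300 TPM in controls. No marker in these lists was at 0 in all libraries, and their part in the MHC levels was not tested.

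**Figure D5:**
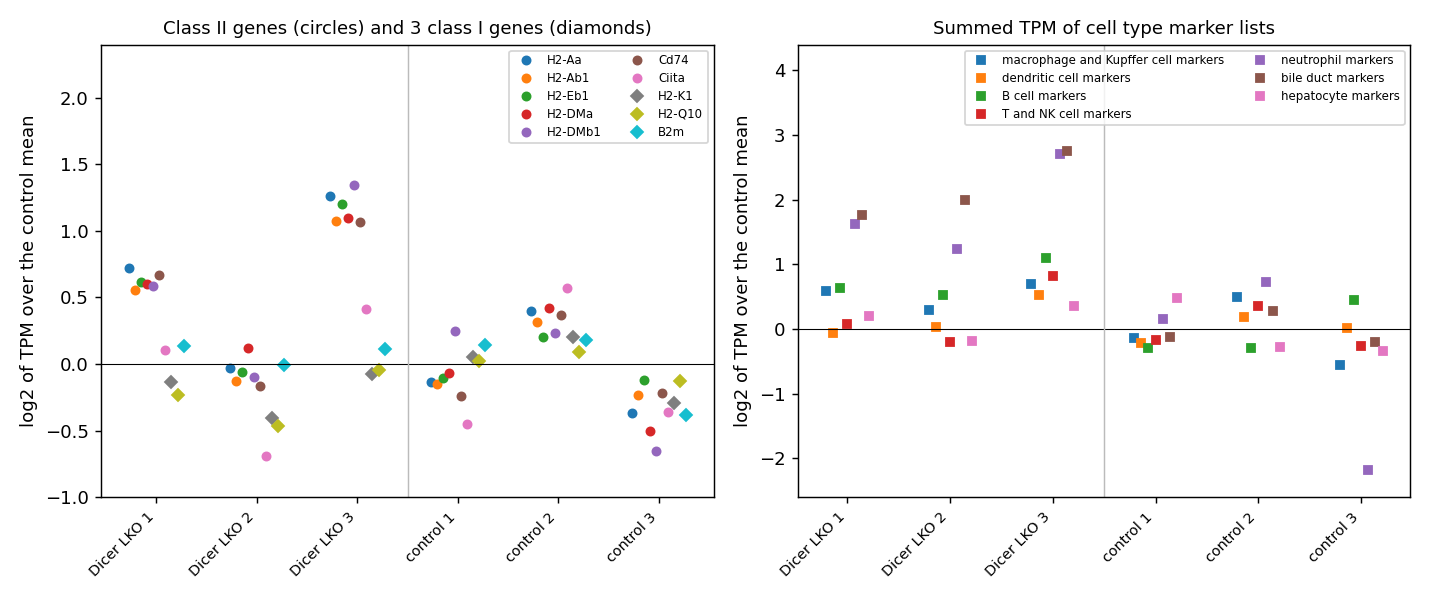
Log2 of TPM over the control mean in each library, for 7 class II genes and 3 class I genes (left, circles and diamonds) and for summed cell type marker lists (right). The class II chains and Cd74 lie together, highest in Dicer LKO 3 and near the control mean in Dicer LKO 2, and macrophage markers are above the control mean in every Dicer LKO library and in control 2.

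The genes listed for class II processing, cathepsins among them, had positive values throughout: all 10 had positive log2 fold changes, with a median of 0.54. None was called by edgeR, 4 of 10 had an unadjusted p under 0.05 (21% of all genes did), and 7 of 10 had no overlap between genotypes (28% of all genes). DESeq2 called 3 (Lgmn, Ctsl and Ctss; 8.1% of all genes) and voom called 1 (Lgmn; 5.5% of all genes). Ctsl, the cathepsin with the highest level, was at 249, 284 and 294 TPM in Dicer LKO and 188, 225 and 128 TPM in controls (log2 fold change 0.72, SE 0.26, adjusted p = 0.172), and Ctsh was at 118, 105 and 132 TPM in Dicer LKO and 127, 114 and 86.8 TPM in controls (0.29, SE 0.21, adjusted p = 0.469). Ctss, the cathepsin that trims the invariant chain, named after its values were seen, was at 46.0, 33.6 and 49.98 TPM in Dicer LKO and 19.9, 30.5 and 14.8 TPM in controls (1.09, SE 0.28, adjusted p = 0.0981). Lgmn, an endosomal protease also named after its values were seen, was at 45.9, 47.6 and 48.1 TPM in Dicer LKO and 30.6, 31.0 and 18.8 TPM in controls (0.93, SE 0.22, adjusted p = 0.0796). Both Ctss and Lgmn are well expressed by macrophages, though not by these cells alone, and the part of macrophages in these values was not tested.

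No gene that supplies peptides to class I was called. The 6 genes of the immunoproteasome and PA28, which cut and feed peptides, had a median log2 fold change of 0.16 with 5 positive, 0 called by edgeR, DESeq2 or voom and 0 at an unadjusted p under 0.05. Psme1, a PA28 subunit, was at 44.6, 36.0 and 47.8 TPM in Dicer LKO and 48.8, 49.7 and 41.4 TPM in controls. Psme2, its partner subunit, was at 43.8, 36.0 and 53.8 TPM in Dicer LKO and 45.2, 36.8 and 28.2 TPM in controls. The 8 genes of loading and trimming had a median of 0.14 with 6 positive and again 0 called by any of the 3 tools and 0 at an unadjusted p under 0.05. Calr, the chaperone calreticulin, had 0.43 (SE 0.24, adjusted p = 0.343) and Hspa5, the chaperone BiP, −0.19 (SE 0.26, adjusted p = 0.711).

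Genes of the interferon pathways, which induce MHC genes, were not called by edgeR. Of 8 tested genes of interferon gamma signalling, 0 were called by edgeR and 3 had an unadjusted edgeR p under 0.05 (21% of all genes did). The groups did not overlap for 5 of the 8 (28% of all genes). DESeq2 and voom each called 2, against 8.1% and 5.5% of all genes. These were Ifngr1 and Irf2, named after their values were seen. Ifngr1, a chain of the receptor, was at 9.34, 9.85 and 10.9 TPM in Dicer LKO and 7.40, 5.90 and 4.78 TPM in controls (log2 fold change 0.91, SE 0.18, adjusted p = 0.0625), and Irf2, a transcription factor of the interferon family, was at 5.27, 4.66 and 5.70 TPM in Dicer LKO and 7.87, 11.8 and 12.2 TPM in controls (−0.93, SE 0.18, adjusted p = 0.0621). Jak1, a kinase of the receptor, had 0.18 (adjusted p = 0.579). The 13 GTPases and chemokines that interferon gamma induces had a median of −0.01, with 6 positive, 0 called by the 3 tools and 0 at an unadjusted p under 0.05; Iigp1 had 0.35 and Igtp −0.19, both immunity GTPases. The 14 type I interferon response genes had a median of 0.16 with 10 positive, 0 called by edgeR, 2 at an unadjusted p under 0.05 and 1, Rsad2, called by DESeq2 and voom; Irf7 had −0.11 and Stat2 −0.23.

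The factors that bind MHC promoters had log2 fold changes of −0.67 to 0.37. Of 7, including the Rfx5 complex, Creb1 and the NF-Y subunits, 2 were positive, the median log2 fold change was −0.11, and 0 were called by any of the 3 tools or at an unadjusted p under 0.05. Nfyb was at 11.4, 8.89 and 11.3 TPM in Dicer LKO and 12.9, 11.1 and 11.2 TPM in controls, and Nfyc was at 7.42, 6.33 and 7.57 TPM in Dicer LKO and 9.40, 8.41 and 7.89 TPM in controls. Of the MHC-like genes outside the complex 9 of 12 were tested, with 0 called by the 3 tools, 0 at an unadjusted p under 0.05 and a median of 0.20. Azgp1, a soluble class I-like protein, was at 614, 537 and 642 TPM in Dicer LKO and 643, 597 and 455 TPM in controls, and Cd1d1, which presents lipids to NKT cells, was at 70.3, 50.1 and 77.8 TPM in Dicer LKO and 85.6, 86.1 and 79.1 TPM in controls. Of the costimulation and checkpoint genes 3 of 6 were tested and 0 called by the 3 tools, with 1 at an unadjusted p under 0.05; Cd86, a costimulator, was at 1.29, 1.53 and 1.70 TPM in Dicer LKO and 1.18, 1.26 and 1.10 TPM in controls (log2 fold change 0.81, SE 0.27, adjusted p = 0.149), and Cd274, which encodes PD-L1, was at 0.48, 0.25 and 0.25 TPM in Dicer LKO and 0.35, 0.85 and 0.45 TPM in controls (−0.65, SE 0.44, adjusted p = 0.437).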

How the data were processed

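The authors deposited, for each of the 6 libraries, a table with expected counts (reads estimated per gene, without normalization) and TPM (abundance corrected for transcript length by the authors). RSEM writes tables with these columns, per the file headers. CASAVA, Bowtie and the build hg19 are named in the submitters' processing notes, although the gene identifiers are mouse. Mouse build, annotation, library kit and strandedness: not given in the sources used here. Of the identifiers, 50376 (99.56%) and all 49 members matched GENCODE M21 (GRCm38), the source of coordinates and gene types. The deposited estimated transcript length of each gene, in bases, is quoted for H2-Q5 only.

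Expected counts (96.0% to 96.5% of them whole) were rounded. The members with a fractional count in some library numbered 13 (H2-DMb1, H2-DMb2, H2-D1, H2-Q1, H2-Q2, H2-Q5, H2-Q6, H2-Q7, H2-Q10, H2-T10, H2-T22, H2-T23 and H2-Ke6); their reads are shared with similar genes and their split is uncertain. Overlapping genes cannot be separated without strand; this touches B2m, Cd74, Nlrc5, Ciita, Tap1, Tap2, Tapbp, H2-Eb1, H2-DMa, H2-Oa, H2-Pa, H2-Q4, H2-T10, H2-T22, H2-T23, H2-T24 and H2-Ke6.

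After filterByExpr and TMM scaling, edgeR's quasi-likelihood test (edgeR 4.0.16, R 4.3.3; robust glmQLFit on genotype alone) was run over all genes, with Benjamini-Hochberg adjustment and calls at an adjusted p under 0.05. The SE was taken as the absolute log2 fold change over the root of F. CPM was computed from the rounded counts with TMM factors, and overlap of groups was judged on CPM. The test was also run on simulated data, and its recovery and false calls there are not given. Alternatives were scaling by library totals, no filter, the replicate number as a block, DESeq2 1.42.0, voom with sample weights (limma 3.58.1) and leaving out each library. A count of 0 allows up to 3 reads per library, counting error only. Totals of 14141954 to 25049753 counts per library leave genes with few reads, such as H2-M2, the least precise.

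Promoter windows came from RefSeq (GRCm38.p6), with an entry for 34 of 49 members. Members with a mean of at least 1 TPM, or called, were named with their values, and up to 4 called genes of each other list, or the 2 with the highest mean TPM where fewer than 2 were called; 1 item is not reported here. Members and lists were chosen with earlier results of these data known.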

Additional observations from a re-analysis of the deposited data

How the results depend on the processing

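Each single-library exclusion moved the count of called genes, which lay between 23 and 389 against 185 with all libraries; it was 103 under scaling by library totals, 422 without the filter on low counts, 1160 with DESeq2 and 787 with voom and sample weights. H2-M2, the 1 called member and 1 called class I gene, remained called without the filter and with DESeq2; the number of called members and of called class I members was 0 under library totals, 0 with the replicate block, 0 with voom and 0 when any library was left out. Class II members called stayed at 0 in every setting run. Scaling by library totals shifted the median of all genes by −0.12 (log2). Of 275 log2 fold changes recomputed for 25 members (the 24 that averaged at least 1 TPM and H2-M2), 250 kept their direction and their side of the threshold, 9 (all H2-M2) missed the threshold and 16 changed sign. H2-T23 was −0.0206 under library totals, Tapbp −0.0794 under library totals and −0.0289 with voom, and H2-Q1 −0.0550 with the replicate block. With libraries left out, the log2 fold changes ran from −0.21 to 0.0842 for H2-K1, −0.0508 to 0.24 for H2-T23, −0.23 to 0.19 for H2-T22, −0.0925 to 0.23 for Tapbp, −0.46 to 0.0863 for Nlrc5, −0.38 to 0.19 for Tap1, −0.20 to 0.87 for H2-Q1 and −0.35 to 0.15 for H2-T24. Of the 5 tested members outside these 25, Ciita, H2-Ob and H2-T10 also changed sign: Ciita with voom (−0.0346), all 3 without control 1 (−0.0980, −0.0887 and −0.0609), Ciita and H2-T10 without Dicer LKO 3 (−0.112 and −0.0633) and Ciita without control 3 (−0.0518). None of these genes was called in any setting, and the cause was not tested. With single libraries left out, the ratio of Dicer LKO to control sums was 0.875 to 1.03 for class I and 1.38 to 2.0 for class II. It was 1.51 to 2.05 for class II relative to class I. These stayed within the error of the ratios with all libraries, 0.17, 0.764 and 0.577 in the same order. That error was formed from the SDs of the groups. It is so wide that dropping 1 library could hardly leave it, and nothing is concluded from it. Libraries that share a replicate number had correlations of deviations across genes of 0.124, 0.0613 and −0.121. Libraries with different numbers had −0.184 to 0.128. With 3 libraries per group, these values cannot show whether the numbers pair the samples, and the labels do not state it. The replicate block gave 245 called genes. Depth limits the genes under 1 TPM most.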

Other observations

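Heart muscle transcripts were present unevenly in these liver libraries. The 9 heart muscle markers summed to 1.41, 0.35 and 7.27 TPM in Dicer LKO and to 9.33, 9.13 and 42.8 TPM in controls, without overlap, and 0 of 6 tested were called by edgeR, DESeq2 or voom, with 1 at an unadjusted p under 0.05. Myl2, a ventricular myosin light chain, was at 0, 0 and 0.92 TPM in Dicer LKO and at 1.72, 1.97 and 28.9 TPM in controls. H2-T-ps, a class I pseudogene left out by its name, had 5, 4 and 18 reads in Dicer LKO and 3, 10 and 2 reads in controls, and H2-M6-ps had 0, 1 and 0 reads in Dicer LKO and 0, 1 and 0 in controls.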
